A study of Sus scrofa with 2 samples.

Results

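The fibroblast growth factor (FGF) genes, their receptors and the coreceptor beta-klotho were set side by side in brain and liver tissue of the Rongchang pig, a domestic breed from China. The 10 genes are the secreted ligands FGF1 and FGF2, the intracellular FGFs FGF12, FGF13 and FGF14, the receptors FGFR1, FGFR2, FGFR3 and FGFR4, and KLB, which encodes beta-klotho. They were found by the gene name or the protein name of each row in a table of read counts, and they are 10 of 21432 genes. RNA from frozen tissue was sequenced from 1 brain library and 1 liver library, so there is no replicate check and no test of any difference. The labels give no age, sex, brain region or animal for either library, and do not say whether a library came from 1 animal or from a pool.

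FGFs signal in several ways. FGF1 and FGF2 leave the cell by an unconventional route and bind receptor tyrosine kinases together with heparan sulphate. FGF11 to FGF14, the FGF homologous factors, stay inside the cell and are best known as partners of voltage-gated sodium channels in neurons. KLB lets the receptors FGFR1 and FGFR4 bind the endocrine ligands FGF21 and FGF19, and in liver the FGF19, FGFR4 and KLB system is known for holding down bile acid synthesis. In brain, FGFR3 is known mainly from astrocytes.

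There were 23796843 counts in brain and 31724498 in liver. Levels are counts per 1000000 counts (CPM) after TMM scaling, an adjustment for libraries of different make-up, and 1 CPM equals 34.9 counts in brain and 21.6 counts in liver. A gene was measured where it reached 1 CPM in at least 1 library, and it was called higher in a tissue at a log2 ratio, brain over liver, of 2 or -2 or beyond, computed from CPM with 1 added. By this rule 14.6% of the 15565 measured genes were higher in brain and 11.3% were higher in liver. Defining markers matched both tissue labels. All 6 measured neuron markers, all 6 astrocyte markers and all 5 measured oligodendrocyte markers were called higher in brain, and all 7 hepatocyte markers were called higher in liver. Of 5 measured endothelial markers, 1 was higher in brain and 4 were higher in liver, and of 6 stellate cell and fibroblast markers 1 was higher in liver. The part of these cell types in the ratios of the FGF and receptor genes was not tested. In bulk tissue, fewer cells of a type and less RNA per cell cannot be told apart.

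All 10 genes were measured. The 4 called higher in brain were FGF1, FGF12, FGF13 and FGF14, against the 14.6% of measured genes called in that direction. FGFR4 alone of the 10 was called higher in liver, against 11.3% of measured genes. The remaining 5 genes, FGF2, FGFR1, FGFR2, FGFR3 and KLB, stayed below the 4-fold rule. The median log2 ratio of the 10 genes was 1.51, and that of all measured genes was 0.01. The plot of all measured genes places the 5 FGF genes and 2 of the receptors above the diagonal, and FGFR3, FGFR4 and KLB under it.

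**Figure D1:**
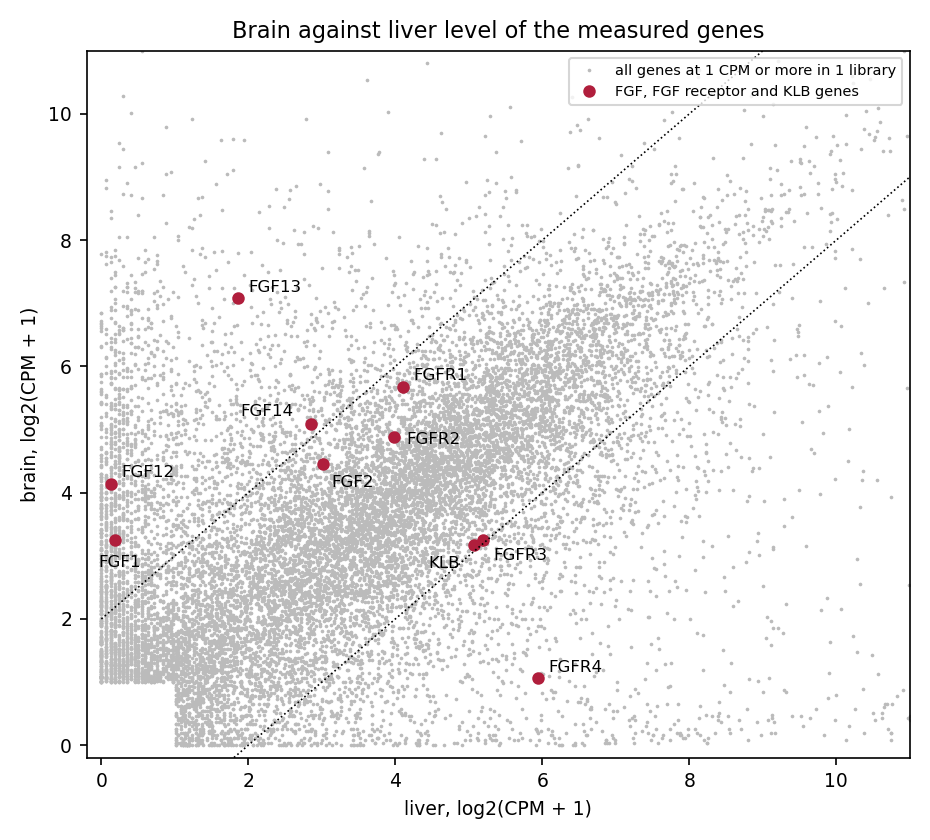
Brain level against liver level, each as log2(CPM + 1), for all measured genes (grey) and the 10 FGF, receptor and KLB genes (red). Dotted lines mark a log2 ratio of 2 and -2, and 73 genes lie beyond the ends of the axes at 11. FGF13 is farthest above the upper line and FGFR4 farthest below the lower line, while FGFR3 and KLB lie close to the lower line.

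Among the secreted ligands, FGF1, or acidic FGF, was nearly all on the brain side. It had 297 counts, or 8.50 CPM, in brain, against 3 counts, or 0.139 CPM, in liver. The ratio of CPM was 61.2, with a 95% interval of 20.7 to 299 that covers counting error only and is wide because of the 3 liver counts. Its log2 ratio was 3.06, and 1.39 with a pseudocount of 5 CPM, which ends the call. The row carries the older name of the gene in the table, and its neighbours there, SPRY4 and ARHGAP26, are also the neighbours of FGF1 in a reference gene table.

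FGF2, or basic FGF, was present in both libraries, with 732 counts (21.0 CPM) in brain and 153 counts (7.08 CPM) in liver. It was thus 2.96-fold higher in brain (95% interval 2.48 to 3.55), short of the 4-fold rule, with a log2 ratio of 1.44. FGF1 and FGF2 therefore differed in how unequally the tissues held them. There were 0.406 FGF1 counts per FGF2 count in brain and 0.0196 in liver, a ratio of ratios of 20.7 (6.85 to 102) that does not depend on scaling between libraries. FGF2 lies beside NUDT6, its antisense partner in other mammals, which had 540 counts in brain and 412 in liver. Because no strand setting is stated, reads of the pair may be shared, and their part in the FGF2 counts was not tested.

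Among the intracellular FGFs, FGF13 and FGF12 had the highest log2 ratios of the 10 genes. FGF13, whose product binds sodium channels and is also known to bind microtubules, had 4717 counts, or 135 CPM, in brain, against 57 counts, or 2.64 CPM, in liver. Its ratio was 51.2 (95% interval 39.4 to 67.7). Its log2 ratio was 5.22, and 97.9% of the measured genes had a lower one. FGF12, another sodium channel partner, had 583 counts, or 16.7 CPM, in brain, against 2 counts, or 0.0926 CPM, in liver. Its ratio of 180 is poorly bounded, from 49.7 to 1492, and its log2 ratio of 4.02 is held down by the CPM of 1 that was added. Carry-over of brain reads into liver at the rate seen for the neuron gene STMN2, 0.0141% of its brain count, would give 0.663 of the 57 liver counts of FGF13 and 0.0820 of the 2 of FGF12.

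FGF14, the gene mutated in a human form of spinocerebellar ataxia, differed least of the 3. It had 1155 counts, or 33.1 CPM, in brain, against 135 counts, or 6.25 CPM, in liver. Its ratio was 5.29 (4.42 to 6.37) and its log2 ratio 2.23, close to the rule. With a pseudocount of 5 CPM the log2 ratio was 1.76, and FGF14 was not called with that pseudocount or at 8-fold. The counts of FGF13 per FGF14 count were 4.08 in brain and 0.422 in liver, a ratio of ratios of 9.67 (6.99 to 13.5). Against FGF12, FGF13 gave a ratio of ratios of 0.284, and its interval of 0.0335 to 1.08 includes equality. Together the 3 intracellular genes had a sum of 185 CPM in brain, against 8.98 CPM in liver.

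FGF12 was split over 2 adjacent rows, and both pointed the same way. The first had 400 counts in brain and 2 in liver. The second had 183 counts in brain and 0 in liver, and the lower 95% bound of its ratio of brain over liver was 30.4. Within the summed counts of the 5 FGF genes, FGF13 took 63.0% in brain (Wilson 95% interval 61.9 to 64.1) and 16.3% in liver (12.8 to 20.5). In the opposite sense, FGF2 took 9.78% in brain (9.13 to 10.5) and 43.7% in liver (38.6 to 49.0). FGF14 took 15.4% in brain (14.6 to 16.3) and 38.6% in liver (33.6 to 43.8), so its share was lower in brain although its level was higher there. FGF1 and FGF12 each took less than 1 percent of the liver sum.

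**Figure D2:**
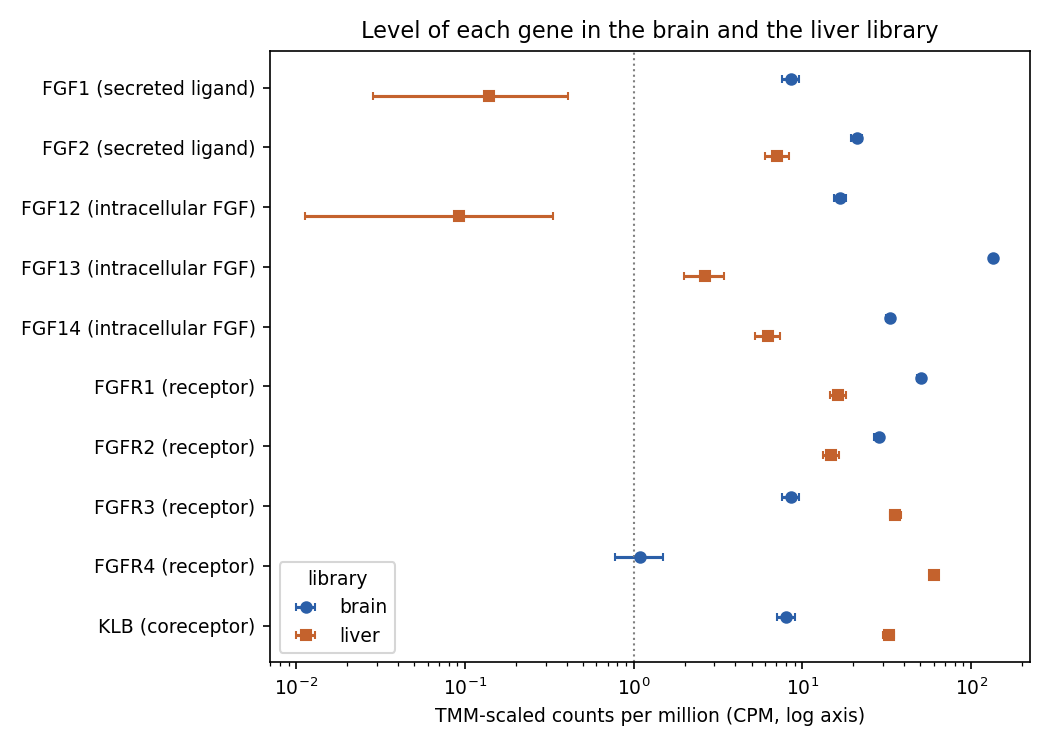
Level of each of the 10 genes in the brain library (blue circles) and the liver library (orange squares) in CPM on a log axis. Bars are exact Poisson 95% intervals of the counts, and the dotted line marks 1 CPM. FGF1 and FGF12 lie below 1 CPM in liver, with wide intervals, and FGFR4 lies at 1.09 CPM in brain.

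The receptor genes divided between the tissues. FGFR1 and FGFR2 had higher levels in brain and FGFR3 and FGFR4 had higher levels in liver. FGFR1, the receptor that KLB joins for FGF21, had 1757 counts, or 50.3 CPM, in brain, against 351 counts, or 16.2 CPM, in liver. It was 3.10-fold higher in brain (2.76 to 3.48), and its log2 ratio of 1.57 was under the 4-fold rule. With plain library size in place of TMM its log2 ratio was 2.63, beyond the rule, while the median of all measured genes moved by 0.96 in the same direction.

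FGFR2 had 991 counts, or 28.4 CPM, in brain, against 320 counts, or 14.8 CPM, in liver. At 1.92-fold (1.69 to 2.18) it differed least of the 10 genes with TMM. Its counts come from 3 rows with the same gene name and product, 1 on a chromosome and the others on scaffolds. The chromosome row had 370 counts in brain and 92 in liver, a ratio of 2.49 (1.97 to 3.16). The first scaffold row had 369 counts in brain and 150 in liver, a ratio of 1.52 (1.25 to 1.85), and the second had 252 counts in brain and 78 in liver, a ratio of 1.998 (1.54 to 2.61). All 3 rows were higher in brain, but the interval of the first scaffold row does not overlap that of the chromosome row.

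FGFR3 had 299 counts, or 8.56 CPM, in brain, against 768 counts, or 35.5 CPM, in liver. The level was 4.15-fold higher in liver (3.63 to 4.76) without the added CPM, while the log2 ratio of -1.93 that decides the call fell just inside the rule. The gene is split over 2 adjacent rows with unequal differences. The row with the longer span, 5551 bp, had 98 counts in brain and 429 in liver and was 7.08-fold higher in liver (5.67 to 8.91). The row that spans 1898 bp had 201 counts in brain and 339 in liver and was 2.73-fold higher in liver (2.28 to 3.26). The ratio of brain over liver differed 2.59-fold between the rows (1.94 to 3.47). The size of the FGFR3 difference therefore depends on which part of the gene was counted, while both rows were higher in liver. Markers of astrocytes, the brain cells best known for FGFR3, summed to 1561 CPM over 6 genes in brain against 22.6 CPM in liver.

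FGFR4, the main FGF receptor of hepatocytes, stood apart from the other receptors. It had 38 counts, or 1.09 CPM, in brain, against 1306 counts, or 60.4 CPM, in liver. In liver the level was 55.6 times as high (40.3 to 78.9). With a log2 ratio of -4.88, it ranked above 2.33% of the measured genes. The 7 hepatocyte markers were also higher in liver, with a sum of 316 CPM in brain, against 437558 CPM in liver. The part of hepatocytes in the FGFR4 ratio was not tested. Carry-over of liver reads into brain at the rate seen for ALB, 0.0262% of its liver count, would give 0.342 of the 38 brain counts of FGFR4.

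The same counts, taken as shares of the receptor sum, give the make-up of each library without any scaling between libraries. The shares of a sum are tied to each other, so a share does not give the direction of a level. FGFR1 took 57.0% of receptor counts in brain (55.2 to 58.7) and 12.8% in liver (11.6 to 14.1). FGFR2 took 32.1% in brain (30.5 to 33.8) and 11.7% in liver (10.5 to 12.9). FGFR3 took 9.69% in brain (8.70 to 10.8) and 28.0% in liver (26.3 to 29.7). FGFR4 took 1.23% in brain (0.899 to 1.69) and 47.6% in liver (45.7 to 49.4). These shares are of counts and are not corrected for transcript length, so they compare a gene across tissues and not receptors with each other. With the highest row of each gene in place of the sum, the FGFR2 share was 15.6% in brain and 6.99% in liver, and the FGFR3 share was 8.50% in brain and 15.8% in liver, in the same directions.

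**Figure D3:**
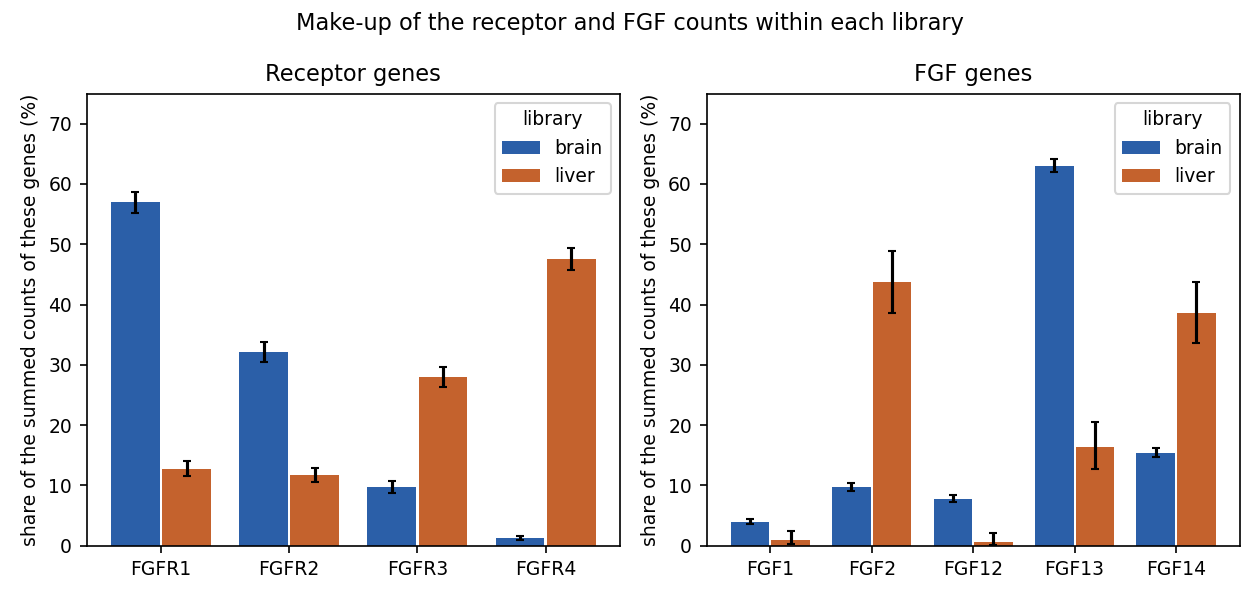
Share of each gene in the summed counts of the 4 receptor genes (left) and of the 5 FGF genes (right), in percent, in the brain library (blue) and the liver library (orange). Bars start at 0 and error bars are Wilson 95% intervals of counting error. The shares of FGFR1 (57.0% in brain, 12.8% in liver) and FGF13 (63.0% in brain, 16.3% in liver) are higher in brain, and those of FGFR4 and FGF2 are higher in liver.

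Pairs of receptors restate this order from the same counts and are no separate check of it. There were 46.2 FGFR1 counts per FGFR4 count in brain and 0.269 in liver, a ratio of ratios of 172 (122 to 249). For FGFR3 against FGFR4 it was 13.4 (9.39 to 19.5), so FGFR3 and FGFR4, though both higher in liver, were unequal in this. FGFR1 against FGFR2 gave 1.62 (1.36 to 1.92), the smallest among the 6 receptor pairs. Summed over the 4 receptors the libraries were closer than for any of FGFR1, FGFR3 or FGFR4 alone, at 88.3 CPM in brain and 127 CPM in liver. The direction of that sum depends on scaling, since its log2 ratio was -0.52 with TMM, -0.07 with the 50 highest genes per library left out and 0.58 with plain library size.

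KLB followed FGFR3 more closely than FGFR4. The coreceptor gene had 279 counts, or 7.99 CPM, in brain, against 703 counts, or 32.5 CPM, in liver. It was 4.07-fold higher in liver (3.54 to 4.70), with a log2 ratio of -1.90, just inside the rule. KLB counts per FGFR4 count were 7.34 in brain and 0.538 in liver, a ratio of ratios of 13.6 (9.55 to 19.9). KLB counts per FGFR1 count were 0.159 in brain and 2.003 in liver. Carry-over from liver at the ALB rate would give 0.184 of the 279 brain counts. The next row in the table, the ribosomal protein gene RPL9, had 12406 counts in brain and 11756 in liver, and whether any of its reads fall in the KLB row was not tested.

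Ordered by the ratio of CPM from brain to liver, the genes ran FGF12, FGF1, FGF13, FGF14, FGFR1, FGF2, FGFR2, KLB, FGFR3 and FGFR4. The intervals of neighbours overlap for FGF12 and FGF1, for FGF1 and FGF13, for FGFR1 and FGF2, and for KLB and FGFR3, so these pairs are not ordered by their counts. FGF2 against FGFR1 gave a ratio of ratios of 0.956, with an interval that includes equality (0.773 to 1.19). The other neighbours do not overlap. No gene of the 10 changed the sign of its log2 ratio under 3 other scalings, the highest row of each gene or subtraction of carry-over. Plain library size and leaving out the 50 highest genes moved all 10 ratios toward brain. Under these scalings only FGFR3, FGFR4 and KLB could have turned. Median of ratios and subtraction of carry-over moved the median of all measured genes by only -0.01 and -0.003, too little to turn any of the 10. With plain library size, FGF2 (2.45) and FGFR1 also passed the 4-fold rule in brain, and FGFR3 and KLB drew in to -0.89 and -0.86.

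**Figure D4:**
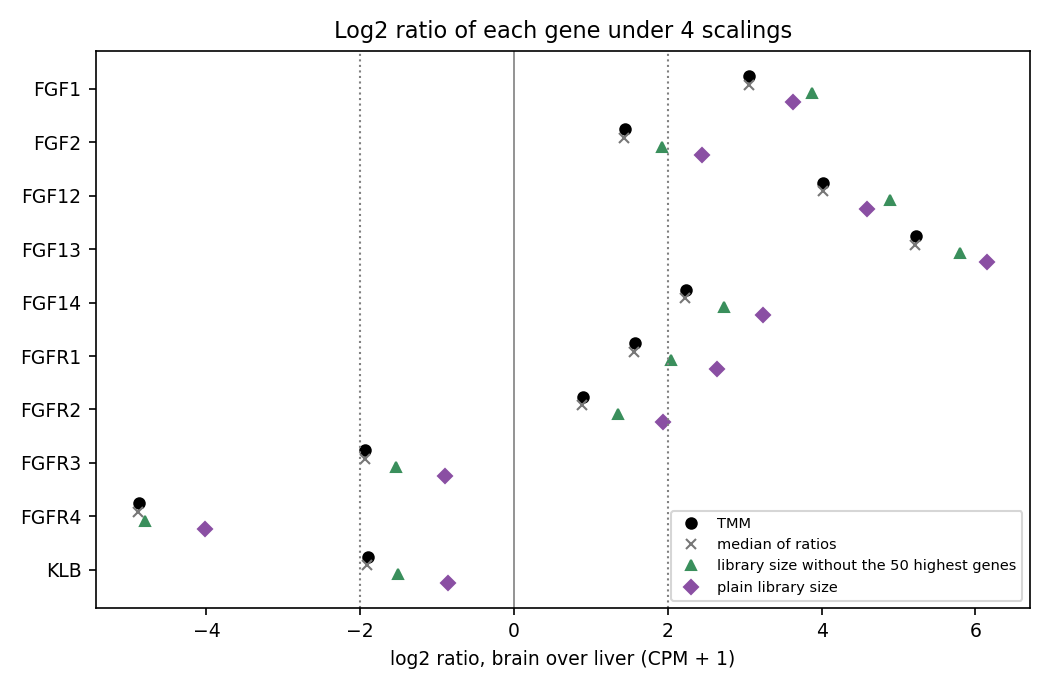
Log2 ratio, brain over liver, of each gene with TMM (black circles), median of ratios (grey crosses), library size without the 50 highest genes of either library (green triangles) and plain library size (purple diamonds). Dotted lines mark the 4-fold rule. Every gene stays on its side of 0 under the 4 scalings, and FGF2, FGFR1, FGFR3 and KLB lie near or across the rule depending on the scaling.

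By likeness in both libraries, the named genes nearest to FGF13 on the log2(CPM + 1) scale were LRRC4C, a synaptic adhesion gene, at 136 CPM in brain and 2.50 CPM in liver, SLC1A3, an astrocyte glutamate transporter gene, at 129 CPM in brain against 2.55 CPM in liver, and TSPAN5, a tetraspanin gene. Those nearest to FGFR4 were EPHA1, an ephrin receptor gene, at 1.12 CPM in brain and 62.2 CPM in liver, then CARNS1, a carnosine synthase gene, and MBNL3, a splicing regulator gene. This likeness rests on 1 value per tissue.

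Of the 9 other secreted paracrine FGF genes with a row, 4 reached 1 CPM in at least 1 library. FGF9, an FGF known from neurons and glia, had 428 counts (12.2 CPM) in brain and 9 counts (0.417 CPM) in liver, a 29.4-fold difference (15.3 to 64.8). FGF18 had 241 counts (6.90 CPM) in brain and 12 (0.555 CPM) in liver. Both were called higher in brain. With a pseudocount of 5 CPM the count was 0, and at 8-fold it was 1, FGF9. FGF7, a ligand made by mesenchymal cells, was at 4.01 CPM in brain against 6.94 CPM in liver, and its log2 ratio of -0.67 was 0.26 with plain library size. FGF10 was at 2.35 CPM in brain and 2.13 CPM in liver. FGF4, FGF5, FGF6, FGF8 and FGF17 had 1 to 5 counts in brain and 0 or 1 in liver and were not measured by the rule. FGF3, FGF16, FGF20 and FGF22 were not analysed here.

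The last intracellular FGF followed its family. FGF11 had 990 counts (28.3 CPM) in brain and 135 counts (6.25 CPM) in liver, 4.54-fold higher in brain (3.79 to 5.47). With a log2 ratio of 2.02 it only just passed the rule, and it was not called with a pseudocount of 5 CPM or at 8-fold. Endocrine ligands were at low levels. FGF21, the fasting hormone that liver secretes, had 27 counts in brain and 9 in liver, under 1 CPM in both. FGF23, the phosphate hormone of bone, had 60 counts (1.72 CPM) in brain and 89 (4.12 CPM) in liver. Its log2 ratio of -0.91, below the 4-fold rule, was -0.11 with plain library size. FGF19 was not analysed here.

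The klotho gene KL, the coreceptor for FGF23, had 36 counts (1.03 CPM) in brain and 4 counts (0.185 CPM) in liver. KL is known in brain mainly from the choroid plexus, and TTR, the defining transcript of that tissue and one that liver also makes, had 15 counts in brain and 34150 in liver. Other markers listed for the choroid plexus were unlike TTR. FOLR1 had 669 counts in brain and 3623 in liver, and CLIC6 had 12 in brain and 1 in liver. How much choroid plexus the brain library held was not tested, nor was the part of carry-over in the TTR counts. LCTL, a klotho relative, was at 1.69 CPM in brain against 2.04 CPM in liver, and its log2 ratio of -0.18 was 0.54 with plain library size.

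Of 99 measured genes in 10 lists of the wider pathway, 29 were higher in brain and 13 higher in liver (40 and 9 with plain library size). These lists were chosen with results of these data known, and their counts are descriptions. Over all measured genes, 14.6% were higher in brain and 11.3% in liver, and plain library size put 24.1% in brain and 6.03% in liver. The liver count of 13 is near the share of all measured genes. Among carriers and receptor partners, 5 of 7 measured genes were higher in brain and 0 in liver, with a median of 2.20. The brain count was 3 with a pseudocount of 5 and 2 at 8-fold. The 5 were NCAM1 (7.95) and L1CAM (2.75), cell adhesion molecules that bind FGF receptors, ANOS1 (3.81), whose protein modulates FGFR1, FLRT3 (2.20), and FGFBP3 (2.10), which carries FGFs from the matrix.

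Of 21 measured adaptors and signal enzymes, 1 was higher in brain and 1 in liver, with a median of 0.35, against 14.6% of all measured genes in brain and 11.3% in liver. The count depends on scaling, with 6 in brain and 0 in liver with plain library size, and 4 in brain and 1 in liver with the 50 highest genes per library left out. MAP2K1, the kinase above ERK, was higher in brain with 101 CPM there, against 23.4 CPM in liver, and the adaptor SHC1 was higher in liver with 9.07 CPM in brain and 65.2 CPM in liver. With plain library size the log2 ratio of SHC1 was -1.66 against -2.72 with TMM, inside the rule. FRS2, the docking protein of FGF receptors, was at 11.3 CPM in brain and 9.30 CPM in liver. It is named outside the rule for named genes and was chosen after its values were seen. Of 14 measured feedback and target genes, 2 were higher in brain and 0 in liver, with a median of 0.68, and the brain share is near the 14.6% of all measured genes. The brain count was 5 with plain library size, 4 with a pseudocount of 0.1 and 1 at 8-fold. The 2 were ETV5, a transcription factor induced by FGF signals, at 46.2 CPM in brain against 7.64 CPM in liver, and the immediate-early gene EGR1 at 90.4 CPM in brain and 4.63 CPM in liver.

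**Figure D5:**
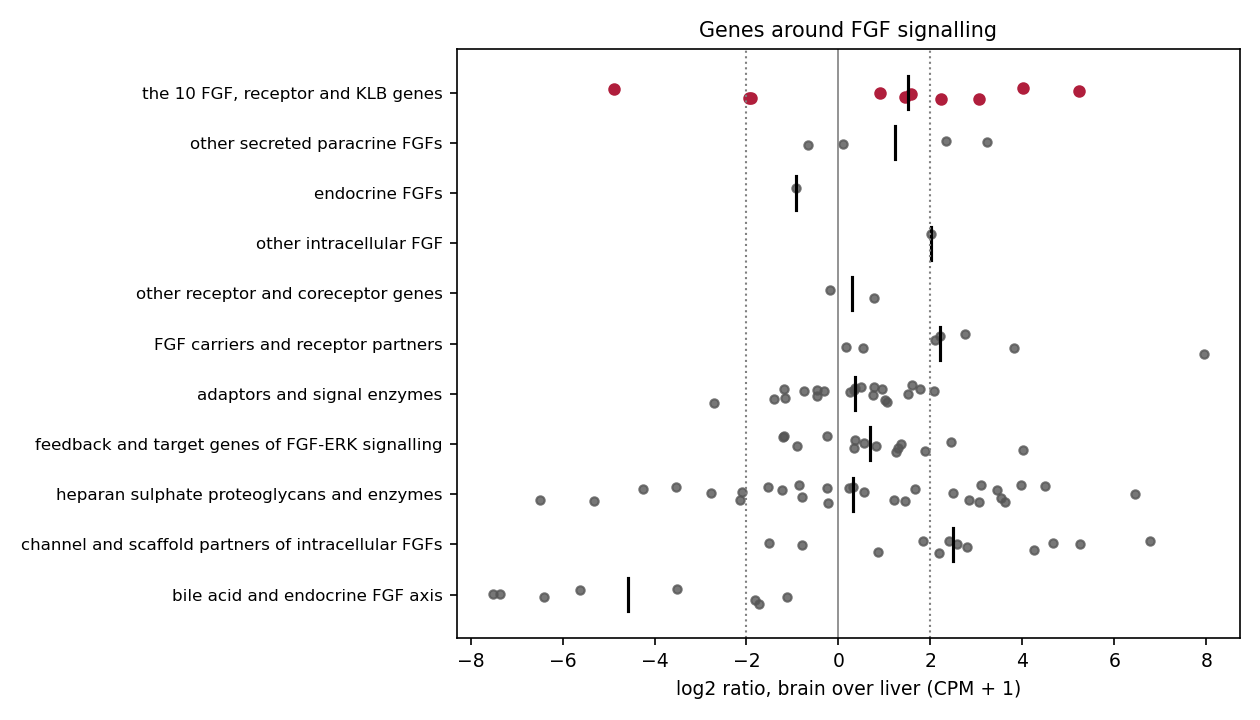
Log2 ratio, brain over liver, of the 10 genes (red) and of each measured gene in 10 lists of the wider pathway (grey). Black bars are medians, and dotted lines mark the 4-fold rule. The channel partners lie mostly right of the upper line, the bile acid genes lie left of 0, and the heparan sulphate genes spread to both sides.

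The partners of the intracellular FGFs were on the brain side. Of 12 measured channel and scaffold genes, 8 were higher in brain and 0 in liver, against 14.6% and 11.3% of all measured genes. Their median was 2.50. The brain count was 4 with a pseudocount of 5 or at 8-fold. SCN2A, a sodium channel gene of neurons, had 5248 counts (150 CPM) in brain and 8 counts (0.370 CPM) in liver. SCN9A, a sodium channel gene of sensory neurons, had a log2 ratio of 5.25. The lowest ratios were those of SCN4A (-1.50), the muscle channel gene, of IKBKG (-0.78, and 0.21 with plain library size) and of SCN4B (0.85).

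The genes listed around bile acids and the endocrine FGF axis of the liver were on the other side. This list holds no FGF, FGF receptor or klotho gene. Of 8 measured genes, 0 were higher in brain and 5 in liver, against 14.6% and 11.3% of all measured genes. Their median was -4.57. NR1H4, which encodes the bile acid receptor FXR, had 4 counts (0.114 CPM) in brain and 3910 counts (181 CPM) in liver. ABCB11, the bile salt export pump, had a log2 ratio of -7.52, HNF4A of -6.40 and NR5A2 of -5.63. NR0B2, the repressor SHP, had 0 counts in brain and 225 in liver, at least 121-fold higher in liver with a floor of 3 counts. CYP7A1, the rate-limiting enzyme of bile acid synthesis and the target of the FGFR4 and KLB system, had only 18 counts (0.515 CPM) in brain and 50 counts (2.31 CPM) in liver, and was named after its value was seen.

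Heparan sulphate genes were called in both directions. Of 29 measured proteoglycan and enzyme genes, 10 were higher in brain and 7 in liver, against 14.6% and 11.3% of all measured genes. Their median was 0.32. The counts were 12 in brain and 4 in liver with plain library size, 7 in brain and 4 in liver with a pseudocount of 5, and 8 in brain and 4 in liver at 8-fold. On the brain side, HS3ST4, a 3-O-sulfotransferase gene, had 119 CPM in brain against 0.370 CPM in liver, and the glypican genes GPC1 and GPC6 had log2 ratios of 4.50 and 3.97. On the liver side, GPC3, a glypican gene of fetal liver, had 4.75 CPM in brain and 512 CPM in liver. The syndecan gene SDC1 had 1.97 CPM in brain against 118 CPM in liver, and SDC2 had 22.5 CPM in brain and 447 CPM in liver. Glypican genes thus stood at both ends of the list.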

How the data were processed

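The submitters' processing notes name the aligner TopHat and the pig build Sscrofa10.2 (susScr3). For the aligner's version, the counting program and strand, the sources used here give nothing. The authors deposited raw counts per row for 1 brain and 1 liver library, read as counts because they are whole numbers with different totals. The deposited gene length in bp is a genomic span, so levels carry no length correction, and the search for genes nearest to FGF13 and FGFR4 used uncorrected CPM.

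Of 21817 rows, 14 belong to the 10 genes, and 8 of these were matched by the protein named in the product column. Other names came from the table or a RefSeq gene table of another assembly, used for names and gene order alone. Rows of a gene were summed. 6988 unnamed rows, with 10.3% of brain and 6.33% of liver counts, entered all totals.

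TMM factors came from edgeR 4.0.16 under R 4.3.3, and no test of that package was run. DESeq2 1.42.0 gave the median-of-ratios factors. Ratios of single genes carry exact conditional binomial intervals, ratios of ratios carry conditional odds-ratio intervals, and shares carry Wilson intervals, all at 95% and for counting error only.

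The members, lists and settings were chosen with earlier results of these data known. Named genes are all members and FGF, receptor and klotho relatives. From each list, they are all genes called where 6 or fewer, and otherwise the 3 highest and 3 lowest ratios. A gene that this rule names is not reported here. Settings tried were 3 other scalings, pseudocounts of 0.1 and 5, no filter or 5 CPM, folds of 2 and 8, the highest row per gene, and subtraction of carry-over.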

Additional observations from a re-analysis of the deposited data

How the results depend on the processing

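With 1 library per tissue, all values describe these libraries, and variation between animals cannot be told apart from the difference between tissues. No paired analysis was possible because each tissue has 1 library and no test was run. Counts per kb of coding length, foreseen for the shares, were not run for want of transcript lengths. The count of members higher in brain was 4. It was 6 with plain library size or a 2-fold rule, with FGF2 and FGFR1 added. With the 50 highest genes per library left out it was 5, with FGFR1 added at a log2 ratio of 2.04. It was 3 at 8-fold, where FGF14 was lost, and 2 with a pseudocount of 5, where FGF1 and FGF14 were lost. The count higher in liver was 1, and 3 with a pseudocount of 0.1 or a 2-fold rule, with FGFR3 and KLB added. Over the pathway lists, the 29 genes higher in brain became 16 with a pseudocount of 5 and 16 with the 8-fold rule. Of all measured genes, 7.91% and 8.54% were then higher in brain. The 13 higher in liver became 24 of 99 with the 2-fold rule, near the 24.4% of all measured genes called in liver by that rule. With the highest row of each gene in place of the sum, FGFR1 took 74.3% of receptor counts in brain and 16.4% in liver, FGFR2 15.6% in brain and 6.99% in liver, FGFR3 8.50% in brain and 15.8% in liver, and FGFR4 60.9% in liver. FGF12 then took 5.48% and FGF13 64.6% of FGF counts in brain. The added CPM, the scaling, the fold rule and the choice of row set these changes by construction. Of 50 log2 ratios of the 10 genes under the other scalings, the highest row and subtraction of carry-over, 17 moved beyond counting error and 0 changed sign. Many of the 50 could not change sign, because the setting moved them away from 0 or hardly at all. The filters and fold rules leave a ratio as it is, and a pseudocount cannot turn its sign.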

Other observations

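The heparan sulphate genes were grouped by the step they serve after their values were seen, and the counts are given without a test. Of 11 measured core protein genes, 2 were higher in brain and 6 in liver, against 14.6% and 11.3% of all measured genes. With plain library size 4 were higher in brain and 4 in liver, with SDC3 (2.76) and GPC5 (2.46) added in brain and SDC4 (-1.87) and HSPG2 (-1.04) lost in liver. All 4 chain synthesis genes, among them EXT1 and EXT2, were below 4-fold, with log2 ratios of -0.86 to 0.22, and of 0.24 to 1.17 with plain library size. Of 11 genes that modify the chain, 6 were higher in brain and 1 in liver, the latter near the 11.3% of all measured genes. The brain genes were NDST3 (3.06), HS3ST1 (3.62), HS3ST2 (3.55), HS3ST4 (6.45), HS6ST2 (3.10) and HS6ST3 (3.46), and the liver gene was GLCE (-2.15, and -1.17 with plain library size), the epimerase. HS6ST2 and HS6ST3 each had 1 liver count, against 279 and 367 counts in brain. HS2ST1, which adds the 2-O-sulphate that FGF2 is known to need, was at 58.6 CPM in brain and 171 CPM in liver. SULF1 (2.84) and SULF2 (2.49), which remove 6-O-sulphates outside the cell, were higher in brain. HPSE (-1.22), the remaining gene grouped with them, was below 4-fold.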
